A study of Mus musculus with 10 samples.

Results

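The multi-hormone barcodes were the pituitary droplet barcodes in which transcripts of growth hormone (Gh), prolactin (Prl) and pro-opiomelanocortin (Pomc) together held at least 30% of the UMIs (unique molecular identifiers, each standing for 1 captured transcript) and in which at least 2 of these 3 genes each held more than 20% of that sum. There were 1613 of them among 22325 barcodes that passed the limits on UMIs, genes, mitochondrial share and ribosomal pseudogene share, and among 3791 barcodes that were rich in hormone RNA at the same 30% limit. They were set against 1899 single-hormone barcodes, in which 1 of the 3 genes held more than 80% of the sum, and the remaining 279 hormone-rich barcodes fell between both definitions. The classes were drawn from the levels of Gh, Prl and Pomc, so the values of these 3 genes are given as a description with no test. The shares and kinds of barcode that follow from them are given likewise, apart from a closing screen for outlying libraries. Tests of differences were run on the other genes and on measures taken with the hormone genes left out.

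All animals were CD1 mice. Wild-type (WT) 8-week mice gave 1 female and 1 male library by 10X Genomics and 2 female and 2 male libraries by Drop-seq, with a physiological condition labelled as undetermined. The other 4 libraries were Drop-seq libraries of females: 1 of 8-week mt/hGRF transgenics, 1 of a 13-week WT virgin and 2 of 13-week WT mice in lactation. The text of the study describes the WT 8-week mice as sexually naïve and the transgenic females as virgin. In mt/hGRF mice a metallothionein promoter drives human growth hormone releasing hormone, so the peptide is not made by the hypothalamus alone. By the study's methods the 4 WT 8-week Drop-seq libraries and the transgenic library each pooled more than 1 mouse. By its results 1 lactating library did too, although the text of the study is not uniform on these numbers.

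In the anterior pituitary, somatotropes make growth hormone, lactotropes prolactin, thyrotropes TSH, gonadotropes LH and FSH, and corticotropes ACTH from the POMC precursor, which melanotropes of the intermediate lobe also make and cut further. The POU-domain factor POU1F1 activates Gh, Prl and Tshb, and Cga encodes the α subunit that LH, FSH and TSH share. A barcode marks a droplet, which can hold 1 cell, several cells or RNA that floats free in the suspension, and for this reason the units are called barcodes here and are given no cell type name.

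The 250 bases before the transcription start of 4 hormone genes are shown because the multi-hormone barcodes were chosen on Prl and Pomc RNA and because Cga and Lhb, the LHβ gene, were the genes of other hormones that differed most from single-hormone barcodes. Sequences are from RefSeq (GRCm38.p6, plus strand) at chr13:27057320-27057569 for Prl, chr12:3954695-3954944 for Pomc, chr4:34893529-34893778 for Cga and chr7:45420696-45420945 for Lhb. Capitals mark TATNCAT, a core of POU1F1 sites, and TATAAA, the TATA box, each searched on both strands, and in Prl both strands of TATAAA overlap near the start.
Prl: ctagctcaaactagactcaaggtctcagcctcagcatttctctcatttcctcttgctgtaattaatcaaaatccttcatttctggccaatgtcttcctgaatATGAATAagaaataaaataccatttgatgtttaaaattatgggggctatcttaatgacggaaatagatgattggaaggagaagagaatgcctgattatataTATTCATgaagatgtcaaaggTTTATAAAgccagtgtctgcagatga
Pomc: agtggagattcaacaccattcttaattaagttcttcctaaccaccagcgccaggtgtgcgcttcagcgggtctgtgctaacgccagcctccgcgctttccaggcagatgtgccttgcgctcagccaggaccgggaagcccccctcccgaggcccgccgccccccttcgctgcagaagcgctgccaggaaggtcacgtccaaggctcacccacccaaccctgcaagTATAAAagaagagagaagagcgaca
Cga: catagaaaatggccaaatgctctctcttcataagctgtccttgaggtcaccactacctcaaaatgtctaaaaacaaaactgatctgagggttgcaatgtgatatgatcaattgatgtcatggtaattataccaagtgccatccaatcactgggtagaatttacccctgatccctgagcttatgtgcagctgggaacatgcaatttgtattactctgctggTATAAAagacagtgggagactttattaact
Lhb: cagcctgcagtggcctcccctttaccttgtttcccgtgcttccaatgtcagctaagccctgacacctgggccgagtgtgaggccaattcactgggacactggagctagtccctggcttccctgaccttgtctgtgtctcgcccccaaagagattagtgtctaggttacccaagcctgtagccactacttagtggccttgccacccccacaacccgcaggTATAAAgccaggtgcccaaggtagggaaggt
Prl held TATNCAT at 148 and 47 bases before the start, and the other 3 windows did not hold these letters. TATAAA began 26 and 24 bases before the start in Prl, 25 in Pomc, 30 in Cga and 31 in Lhb. Of 32851 windows of this length, 7.92% held TATNCAT and 12.4% held TATAAA.

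The kept barcodes held 798791 to 4960260 UMIs per library, with a median of 533 to 1236 UMIs per barcode. No pair of libraries shared more than 5 kept barcodes, and no multi-hormone barcode occurred in more than 1 library. In the second Drop-seq female library 7 multi-hormone barcodes (12.5%) shared their first 11 bases with another barcode, against at most 0.995% in any other Drop-seq library. No doublet caller was run and no barcode was removed as a doublet. Barcodes under 300 UMIs in Drop-seq and up to 100 UMIs in 10X, here called low-UMI barcodes, served as a background in the 9 libraries that held enough of them, although those of Drop-seq were not shown to be empty droplets. The same use was made of C1q-positive barcodes (at least 3 UMIs of the complement genes C1qa, C1qb and C1qc), which carry macrophage transcripts and should lack pituitary hormones.

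Counted over all libraries, most multi-hormone barcodes carried Gh and Prl, but this kind led in 5 of the 10 libraries. Both genes passed the 20% limit in 1254 barcodes (77.7%), Gh and Pomc did in 157 (9.73%), Prl and Pomc in 35 (2.17%) and all 3 genes in 167 (10.4%). Barcodes with Gh and Prl were 82.6 to 95.9% of the multi-hormone barcodes in the transgenic, virgin and lactating libraries and Drop-seq female 1, and 20%, 9.68%, 22.2%, 12.5% and 15% in the 10X female, 10X male, Drop-seq male 1, Drop-seq female 2 and Drop-seq male 2 libraries. Prl was the leading gene in 851 barcodes, Gh in 659 and Pomc in 103. In the median multi-hormone barcode the leading gene held 58.4% of the hormone UMIs, the second gene 29.6% and the third 8.74%, and the 3 genes together held 53.4% of all UMIs. Over all hormone-rich barcodes, the second gene's share was most often under 5% (1202 barcodes), fell to 259 at 15 to 20%, just outside the limit, was 360 at 20 to 25% and 482 at 25 to 30%, and was lower again beyond, at 87 for 45 to 50%. These counts pool libraries whose hormone mixes differ. At the other limit, 317 of 859 barcodes with a hormone share of 25 to 30% had 2 genes above 20%, as did 182 of 544 at 30 to 35%.

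**Figure D1:**
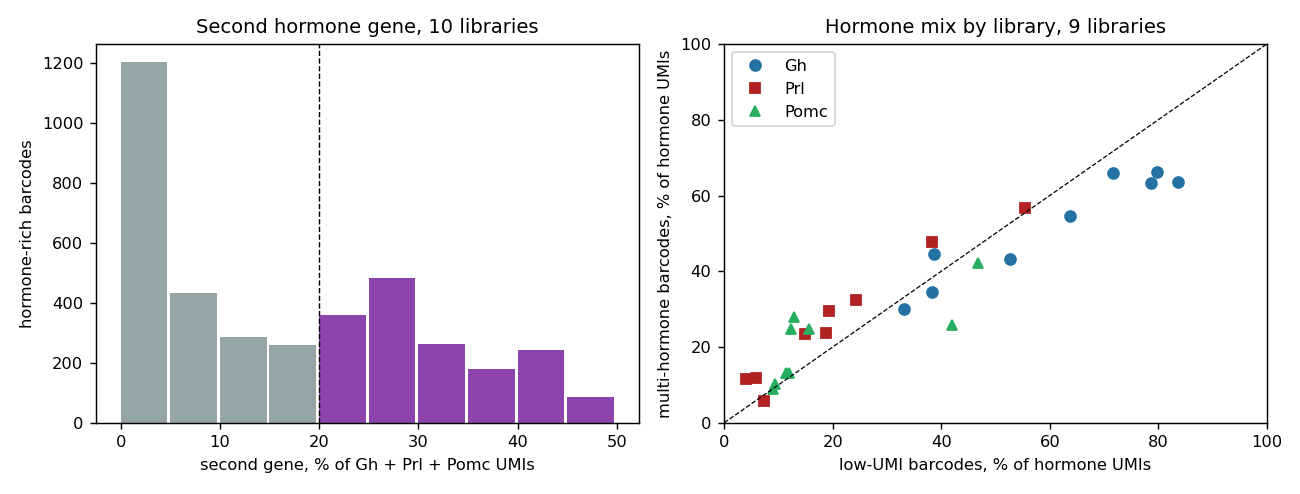
Left, number of hormone-rich barcodes by the share (%) of the Gh, Prl and Pomc UMIs held by the second gene, in 5% steps over all 10 libraries, with the multi-hormone side of the 20% limit in purple; 259 barcodes lie just left of the limit and 360 just right of it. Right, share (%) of each gene among the hormone UMIs of multi-hormone barcodes against that of low-UMI barcodes, 1 point per gene and library in the 9 libraries with enough low-UMI barcodes, with the dashed line marking equal shares.

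The hormone mix of the multi-hormone barcodes differed widely between libraries. Prl held 5.85% of their hormone UMIs in the 10X male library and 59.5% in lactating library 2, the lowest and the highest, while Pomc ranged from 9.02% in the virgin library to 42.1% in Drop-seq female 2. The low-UMI barcodes of the same libraries held a like mix in some cases: Prl 7.32% in the 10X male library and 55.4% in lactating library 1, where the multi-hormone barcodes held 56.6%, and Pomc 8.95% in the virgin library and 46.9% in Drop-seq female 2. In other cases the mixes differed. In males Gh held 63.4 to 66.3% of the hormone UMIs in multi-hormone barcodes and 78.6 to 83.7% in low-UMI barcodes, and Pomc 24.7 to 27.8% against 12.2 to 15.6%. In the 10X female library Pomc held 25.8% against 42.0% and Prl 29.6% against 19.4%. C1q-positive barcodes held a median of 3 to 49 hormone UMIs, against 248 to 1163 in the multi-hormone barcodes. The latter were chosen for a high hormone share, so this gap is a description. Of 826 C1q-positive barcodes 11 were rich in hormone RNA, and 5 of these were multi-hormone. Over all libraries 7.23% of the kept and 42.55% of the hormone-rich barcodes were multi-hormone. The part of free RNA in the multi-hormone barcodes was not tested.

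Multi-hormone barcodes took a larger share of the hormone-rich barcodes in WT females than in WT males at 8 weeks. The share was 52.6%, 75.3% and 39.2% in the 10X and both Drop-seq female libraries, and 21.0%, 13.6% and 10.4% in the 3 matching male libraries. Every female library was above every male library, on both platforms, with means of 55.7% ± 18.25 (SD, n = 3) and 15.02% ± 5.44 (SD, n = 3). The male minus female difference was -40.7 percentage points, and -22.2 when the second gene had to exceed 30%. The share was 20.6% (exact 95% Clopper-Pearson interval 16.25 to 25.45%) in the mt/hGRF females, 49.9% (46.3 to 53.6%) in the virgin and 49.7% (44.6 to 54.8%) and 51.3% (48.2 to 54.4%) in the lactating females. These intervals cover counting error only. Of all kept barcodes, 24.9% were multi-hormone in Drop-seq female 1, far above the 1.03 to 10.1% in the other 9 libraries.

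The kind of multi-hormone barcode also went with sex. Gh and Pomc were the 2 genes in 90.3%, 77.8% and 85% of the male multi-hormone barcodes, and in 8.89%, 2.99% and 46.4% of the female ones. No male library held a barcode with all 3 genes, against 62, 29 and 23 such barcodes in the 3 WT 8-week female libraries. Prl held 26.7%, 28.4% and 13.98% of the hormone UMIs of all kept barcodes in the 3 WT 8-week female libraries and 7.68%, 5.45% and 8.21% in the male libraries, and the part of this difference in the kinds was not tested.

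**Figure D2:**
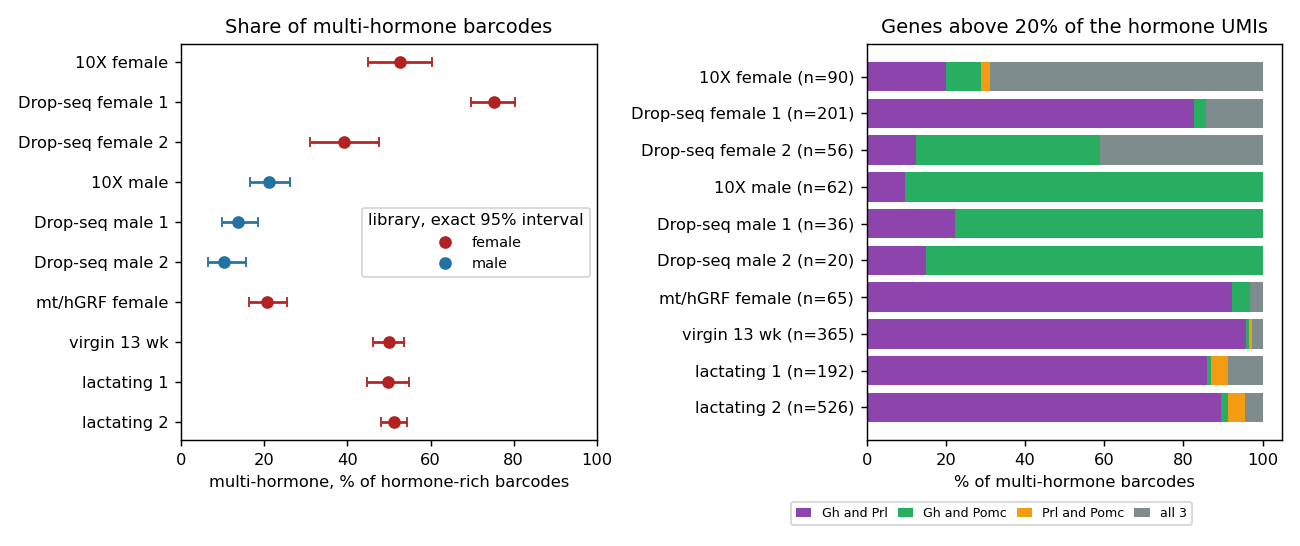
Left, multi-hormone share (%) of the hormone-rich barcodes in each library, with exact 95% binomial intervals as bars; the 3 WT 8-week female libraries (39.2 to 75.3%) sit above the 3 male libraries (10.4 to 21.0%). Right, share (%) of multi-hormone barcodes by the genes above 20% of the hormone UMIs, with the number of barcodes per library beside its name.

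The multi-hormone barcodes and single-hormone barcodes had medians of non-hormone UMIs that overlapped and were not told apart by the test. Their median was 264 to 1002 non-hormone UMIs per library and that of single-hormone barcodes 248 to 713. The geometric mean ratio was 1.05, the multi-hormone median was higher in 6 of 10 libraries, and an exact two-sided sign-flip test gave p = 0.625. The 10X female library had the widest gap in one direction (1002 against 577) and Drop-seq female 2 in the other (392 against 700.5), and the direction of the mean turned without the 10X female library.

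The RNA of the multi-hormone barcodes was spread over more genes. Thinned to 100 non-hormone UMIs, a multi-hormone barcode showed 88.1 ± 4.19 genes (SD, n = 10 libraries) and a single-hormone barcode 83.3 ± 3.83, and the multi-hormone mean was higher in 10 of 10 libraries (exact sign-flip permutation p = 0.00195, adjusted p = 0.00585 over 6 measures). Mitochondrial genes held 4.56% ± 0.992 of the non-hormone UMIs in multi-hormone barcodes and 7.97% ± 1.63 in single-hormone barcodes, lower in 10 of 10 libraries (n = 10, the same exact p). Malat1, a nuclear noncoding RNA, stood at 157, 274 and 996 UMIs per 10000 (lowest, median and highest library) in multi-hormone and 342, 576 and 1080 in single-hormone barcodes. Its ratio was 0.585, lower in 9 of 10 libraries with lactating library 1 as the exception (exact sign-flip permutation p = 0.00586, adjusted p = 0.0117). These measures overlap, because mitochondrial and Malat1 UMIs are among those thinned. Their part in the gene number was not tested, and gene number was not split by kind. By kind, mitochondrial genes held 4.12 to 5.66% of the non-hormone UMIs in barcodes with Gh and Prl. In those with Gh alone in the same 5 libraries they held 6.45 to 8.02%, with no overlap. In the 4 of these libraries with Prl single-hormone barcodes, the mitochondrial share of the latter was 4.75 to 7.25%. This was more than in barcodes with Gh and Prl in 2 libraries and less in 2 (virgin and lactating 1). Pomc single-hormone barcodes held 9.21 to 13.1% in 4 libraries.

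**Figure D3:**
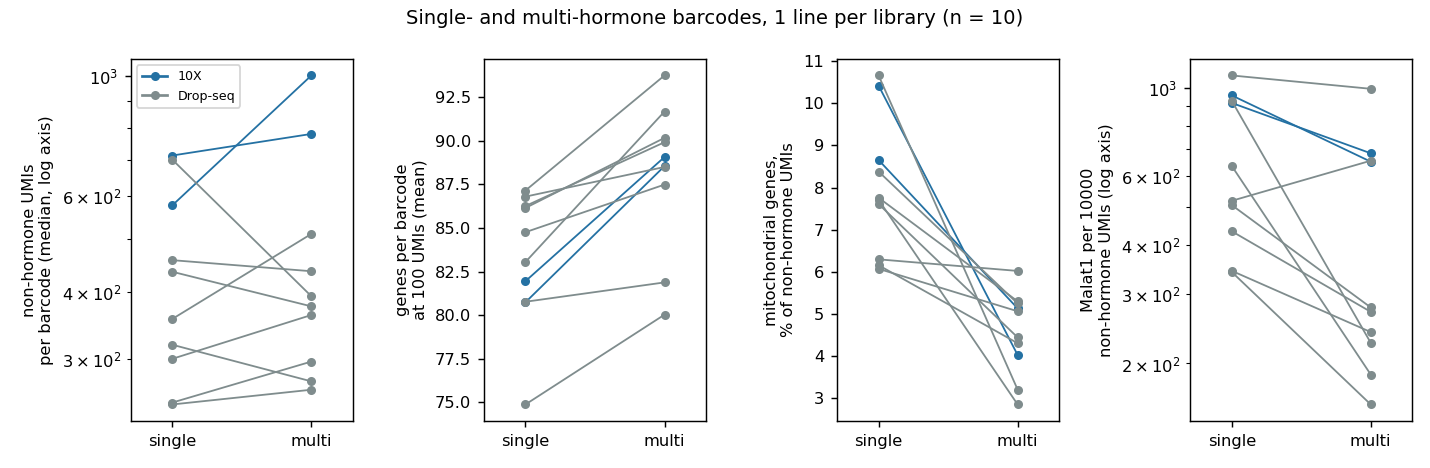
Medians or means of single-hormone and multi-hormone barcodes joined by 1 line per library (n = 10; 10X in blue, Drop-seq in grey) for non-hormone UMIs per barcode, genes per barcode at 100 UMIs, mitochondrial share (%) and Malat1 per 10000 non-hormone UMIs. Gene numbers rise in every library (means 83.3 to 88.1), mitochondrial shares fall in every library (means 7.97 to 4.56%), and the lines for UMIs cross.

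Among the other genes, those of the pituitary glycoprotein hormones were higher in multi-hormone barcodes, together with 3 of 3 tested red cell markers and 2 of 4 stromal markers, while 10 of 12 mitochondrial genes and 3 of 6 nuclear noncoding RNAs were lower. UMIs were summed per library and class and tested by edgeR's quasi-likelihood test with the library as a block and Benjamini-Hochberg adjustment over 4719 genes. At an adjusted p below 0.05, 56 genes were higher and 67 lower, or 2.61% of the genes tested, and the median log2 fold change over all genes was -0.05. The split depended on the scaling and the libraries: with no TMM factors the median moved to 0.13, with 131 genes higher and 29 lower. It also moved to 43 higher and 15 lower with the single-hormone kinds weighted to the leading genes of the multi-hormone barcodes, to 69 and 134 without lactating library 1 and to 33 and 28 without the virgin library.

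All 4 glycoprotein hormone subunit genes rose, against 1.19% of all genes tested. Cga stood at 46.6, 91.0 and 162 UMIs per 10000 (lowest, median and highest library) in multi-hormone barcodes and at 1.08, 5.37 and 95.3 in single-hormone barcodes. It was higher in each of 10 libraries, although the ranges overlapped, by 2.74 ± 0.24 on the log2 scale (SE, adjusted p = 2.91e-20 by edgeR). Lhb stood at 1.76, 11.9 and 32.7 against 0, 0.696 and 12.7, also higher in 10 of 10 libraries (log2 fold change 2.64 ± 0.24, adjusted p = 1.72e-18 by edgeR). The highest single-hormone values of Lhb came from males: Gh single-hormone barcodes of the 3 male libraries held 14.1, 13.9 and 13.4 Lhb UMIs per 10000, and those of the other 7 libraries at most 0.935. Fshb, the FSHβ gene, was higher in 10 of 10 libraries, at a median of 1.37 against 0.0575 per 10000 (log2 fold change 1.89, adjusted p = 4.15e-08 by edgeR). Tshb, the TSHβ gene, had medians of 6.46 and 1.04 (log2 fold change 1.39, adjusted p = 1.02e-05 by edgeR), higher in 9 of 10 libraries, but in the 10X female library it stood at 8.99 in multi-hormone and at 41.4 in single-hormone barcodes.

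Of 5 gonadotrope markers, all 4 that were tested rose, with a median log2 fold change of 2.497. Of these, Lhb, Fshb and Cga are the subunit genes given above, so Gnrhr, the receptor for gonadotropin releasing hormone, was the only further gene. Nr5a1 was not tested and was higher in 5 libraries and lower in 3. Gnrhr rose by 2.36 ± 0.34 (adjusted p = 3.46e-08 by edgeR), from a median of 0.119 to 1.23 UMIs per 10000. The summed level of the gonadotrope markers, most of it Cga, was 49.7, 106 and 206 per 10000 in multi-hormone barcodes and 1.48, 6.21 and 112 in single-hormone barcodes. Low-UMI barcodes held 6.28, 29.3 and 139, less than the multi-hormone barcodes of the same library in 9 of 9 libraries but more than the single-hormone median, and the part of free RNA in this difference was not tested. In barcodes thinned to 100 UMIs, at least 1 Cga UMI was seen in 43.5% of the multi-hormone barcodes (75.0% before thinning) and in 2.45% of 815 C1q-positive barcodes that were not rich in hormone RNA (15.95% before thinning). The median depth was 264 to 1022 UMIs other than Gh, Prl and Pomc in multi-hormone and 615 to 1755 in C1q-positive barcodes. Lhb was seen in 7.44% of thinned multi-hormone barcodes (26.1% before thinning) and in 0 of the 815 C1q-positive ones (1.23% before thinning). Over libraries, the thinned multi-hormone shares ran from 31.2 to 75.0% for Cga and from 1.04 to 29.0% for Lhb. In thinned Gh single-hormone barcodes Cga was seen in 17.7% (0 to 53.6% over libraries) and Lhb in 4.44% (0 to 15.5%). The shares were 6.20% and 0.775% in Prl single-hormone barcodes and 4.68% and 0% in Pomc single-hormone barcodes.

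**Figure D4:**
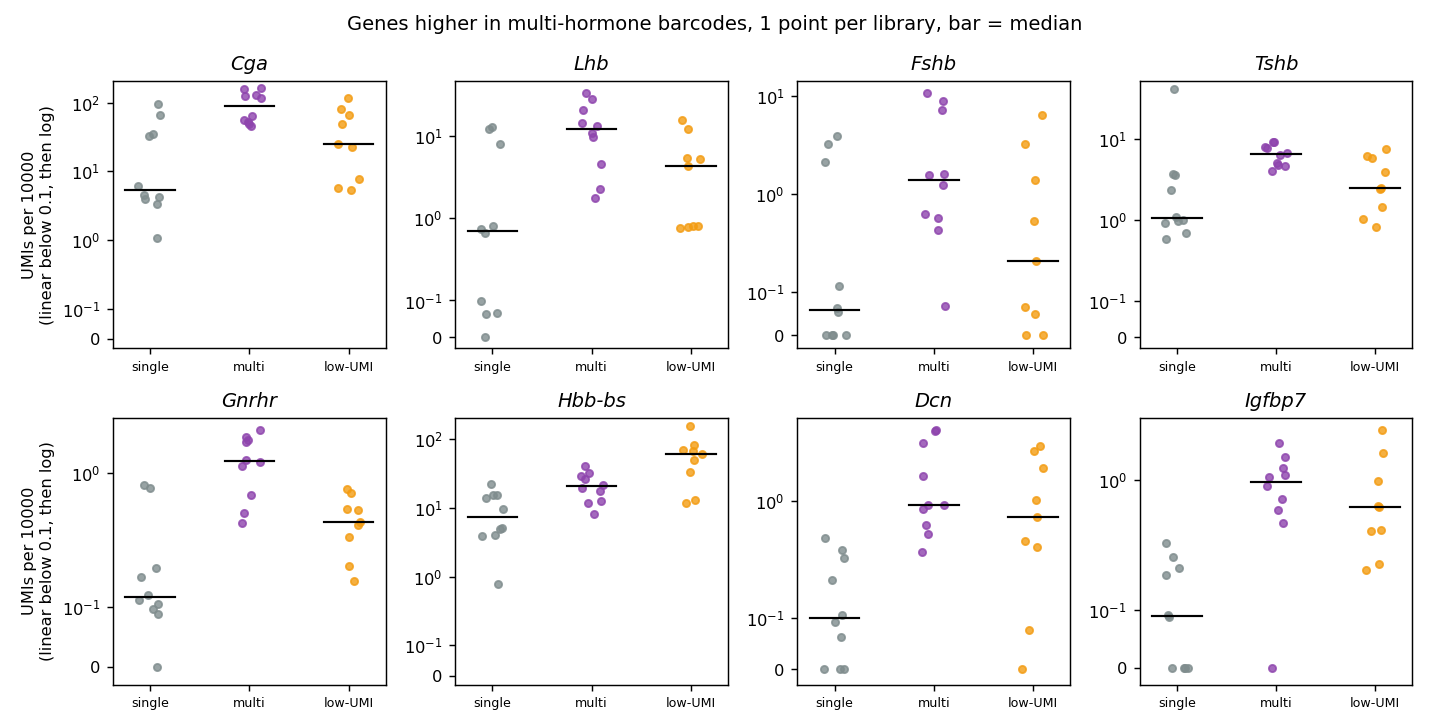
UMIs per 10000 non-hormone UMIs of 8 genes in single-hormone, multi-hormone and low-UMI barcodes, 1 point per library (10, 10 and 9 libraries), with bars at the medians; the axis is linear below 0.1 and logarithmic above. Cga, Lhb, Fshb and Tshb sit highest in multi-hormone barcodes by median, while Hbb-bs sits highest in low-UMI barcodes.

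Of the markers of cell types outside the hormone lineages, those of red cells rose and some of stroma did. Of 5 red cell markers, all 3 that were tested rose (median log2 fold change 1.23): Hbb-bs, a β-globin gene, stood at 8.26, 20.5 and 40.7 UMIs per 10000 in multi-hormone and 0.788, 7.33 and 22.1 in single-hormone barcodes (log2 fold change 1.23 ± 0.19, adjusted p = 2.73e-07 by edgeR, higher in 10 of 10 libraries). The summed red cell level was 15.3 to 66.3 in multi-hormone, 1.77 to 34.3 in single-hormone and 18.9 to 362 in low-UMI barcodes, where it exceeded that of the multi-hormone barcodes in 7 of 9 libraries. Of 4 stromal markers, Dcn (decorin, a matrix proteoglycan) and Col1a1 (a collagen chain) rose, Dcn from a median of 0.0984 to 0.933 (log2 fold change 2.47 ± 0.37, adjusted p = 1.51e-07 by edgeR, 10 of 10 libraries). Col1a1 was higher in 8 libraries and lower in 2. The other stromal markers did not pass: Col3a1 was higher in 8 libraries and lower in 1, and Col1a2 higher in 3 and lower in 7. The summed stromal level overlapped between classes, at 3.8 to 21.8 in multi-hormone and 1.38 to 11.6 in single-hormone barcodes. Macrophage and endothelial markers were too low to be tested: their summed levels in multi-hormone barcodes were at most 2.24 and 1.06 per 10000, and those of T and NK cell markers at most 0.213, with Cd3e, Nkg7 and Gzma at 0. Pituicyte markers, also untested, reached 5.07 in Drop-seq male 1 (0 in its single-hormone barcodes) and were higher in multi-hormone barcodes in 7 libraries and lower in 2. The 1 stem and supporting cell marker and the 2 proliferation markers that were tested did not pass.

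Several of these lists could have UMIs in 1 barcode. Of multi-hormone barcodes thinned to 100 UMIs, 9.23 to 28.9% per library held UMIs from at least 2 of 5 marker lists (gonadotrope, stromal, red cell, endothelial and macrophage), against 0 to 19.2% of single-hormone barcodes. The multi-hormone share was higher in 9 of 10 libraries, and in Drop-seq male 1 it was 13.9% against 19.2%. The lists that rose singly raise this share too, and whether they met more often than their own rates give was not tested.

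Further genes with the largest rises were low in count. Igf2, a growth factor gene, had 20 UMIs over all multi-hormone barcodes and 0 over all single-hormone barcodes, with UMIs in 8 of 10 libraries, at least 8.99-fold higher when the 0 is replaced by a floor of 3 counts over the group. Igfbp7, an IGF-binding protein gene of vessels and stroma, had medians of 0.974 and 0.0894 UMIs per 10000 (log2 fold change 3.14 ± 0.44, adjusted p = 1.55e-08 by edgeR, higher in 9 of 10 libraries and at 0 in the transgenic multi-hormone barcodes). Ptgds, a prostaglandin synthase gene, had medians of 1.10 and 0.163 (log2 fold change 2.92, adjusted p = 1.45e-11 by edgeR) and reached 15.8 in Drop-seq female 2. Timp3, an inhibitor of matrix proteases, ranged from 0.412 to 1.52 in multi-hormone and from 0 to 0.256 in single-hormone barcodes, with no overlap between the libraries of both classes (log2 fold change 2.35, adjusted p = 0.000123 by edgeR). Rgs4, a regulator of G protein signalling, was also among the 10 largest rises, as were Cga, Lhb, Gnrhr and Dcn.

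The genes that fell were led by the mitochondrial genome, where 10 of 12 genes tested fell (median log2 fold change -1.20), against 1.42% of all genes tested. mt-Nd2, a subunit of complex I, stood at 7.61, 11.9 and 17.6 UMIs per 10000 in multi-hormone and 13.1, 25.2 and 44.0 in single-hormone barcodes, lower in 9 of 10 libraries (log2 fold change -1.28, adjusted p = 4.6e-08 by edgeR). mt-Nd1 fell by 1.26 on the log2 scale (adjusted p = 1.29e-07 by edgeR). Nearly all UMIs of mt-Nd3, mt-Atp6 and mt-Co2 were in the 10X libraries, so their change rests on 2 libraries. Of 6 nuclear noncoding RNAs, Malat1 (log2 fold change -0.97, adjusted p = 0.0029), Meg3 (-1.09, adjusted p = 0.000132) and Miat (-1.21, adjusted p = 0.0465 by edgeR) fell. When the single-hormone kinds were weighted to the leading genes of the multi-hormone barcodes, mt-Nd1, mt-Nd2 and Meg3 were still called and Malat1 was not. With no TMM factors 7 of the 12 mitochondrial and 2 of the 6 noncoding genes were called lower. Of 8 immediate early genes 1 (Fos) was called lower, and of 19 folding genes of the endoplasmic reticulum 1 (Pdia6, log2 fold change -0.63, adjusted p = 0.0204 by edgeR), but with no TMM factors 0 of either list were. Trim39, Ccdc82 and Whamm, 3 further genes with the largest falls, changed by -1.43, -1.35 and -1.22 on the log2 scale. By kind, in at most 5 libraries, few of these falls were called. Barcodes with Gh and Prl had 0 of 12 mitochondrial genes lower than Gh or Prl single-hormone barcodes (median log2 fold changes -0.304 and -0.214). Of 6 noncoding RNAs 0 were lower in either comparison (medians -0.447 and 0.366). Barcodes with Gh and Pomc had 1 of 12 and 0 of 6 lower than Gh single-hormone barcodes.

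Apart from gonadotrope and thyrotrope markers, genes that define the hormone lineages mostly did not pass the test between both classes. Leaving out Gh, Prl and Pomc, 0 of 2 somatotrope, 0 of 3 lactotrope, 0 of 3 melanotrope and 0 of 1 corticotrope markers tested were called. With 2.61% of all genes tested called, lists this short would seldom hold a call. Summed somatotrope markers were higher in 1 and lower in 8 libraries, and summed lactotrope markers higher in 7 and lower in 2. The melanotrope sum was higher in 5 and lower in 5, and the corticotrope sum higher in 7 and lower in 3. Pou1f1 stood at 4.21, 6.0 and 8.57 UMIs per 10000 in multi-hormone and 2.27, 6.39 and 8.57 in single-hormone barcodes (log2 fold change -0.05 ± 0.17, adjusted p = 0.934 by edgeR). Of 14 lineage transcription factors tested, Nr4a2 was the 1 called, with a log2 fold change of -1.14 (adjusted p = 0.00253 by edgeR). In barcodes with Gh and Prl, however, Nr4a2 was called higher than in Gh single-hormone barcodes and was not called against Prl single-hormone barcodes. None passed of 14 granule and prohormone processing genes or 22 translocation genes of the endoplasmic reticulum. The same held for 82 ribosomal protein genes and 74 nuclear genes of oxidative phosphorylation. Over all genes tested 2.61% passed, so few calls would be expected in lists of these sizes. An unadjusted p below 0.05 by edgeR was reached by 680 of all genes tested. Of the 3 genes that the study named as markers of its multi-hormone cluster none passed: Gpx3, a secreted peroxidase, had a log2 fold change of 0.48 ± 0.17 (adjusted p = 0.129) and Ddah1 of -0.26 ± 0.22 (adjusted p = 0.622 by edgeR). With no TMM factors Gpx3 was called higher. That list was chosen by the study on these samples, for a group found by clustering of expression and not by hormone shares. The single-hormone class also mixes barcodes led by Gh, Prl and Pomc, which the next comparisons take apart. There, in barcodes with Gh and Prl, Ddah1 was called higher than in Prl single-hormone barcodes. Against Gh single-hormone barcodes 0 of the 3 were called.

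In barcodes with Gh and Prl, Prl2b1 and Chgb lay between both single-hormone kinds, and Ghrhr lay above the Prl kind. Sums of at least 20 barcodes per library and kind entered 1 edgeR fit, and 5 libraries (transgenic, virgin, both lactating and Drop-seq female 1, in this order below) held barcodes with Gh and Prl as well as Gh single-hormone barcodes, 4 of which also held Prl single-hormone barcodes. Ghrhr, the receptor for growth hormone releasing hormone, stood at 1.79, 1.85, 1.68, 1.60 and 0.851 UMIs per 10000 in barcodes with Gh and Prl, at 2.85, 4.32, 4.81, 3.70 and 1.00 in Gh single-hormone barcodes and at 0, 0, 0 and 0.171 in Prl single-hormone barcodes. It was below the Gh kind in 5 of 5 libraries without passing the test (log2 fold change -1.05 ± 0.33, adjusted p = 0.0573) and above the Prl kind in 4 of 4 (log2 fold change 4.42 ± 0.67, adjusted p = 3.42e-08 by edgeR). Prl2b1, a gene of the prolactin family, ran the other way, at 0.673, 1.53, 3.13, 1.95 and 2.13 in barcodes with Gh and Prl, at most 0.0982 in Gh single-hormone barcodes and 6.39, 5.02, 9.22 and 5.21 in Prl single-hormone barcodes. Its log2 fold change was 4.07 against the Gh kind (adjusted p = 4.51e-09) and -1.89 ± 0.32 against the Prl kind (adjusted p = 2.06e-06 by edgeR). Chgb, the granule protein secretogranin-1, stood at 118, 231, 349, 459 and 102, against 85.3, 46.1, 60.4, 101 and 42.6 in the Gh kind (log2 fold change 1.85) and 281, 506, 764 and 1090 in the Prl kind (log2 fold change -1.27, adjusted p = 0.0463 by edgeR). In each of the 4 libraries that held all 3 kinds, both Prl2b1 and Chgb were between the single-hormone values. The lineage lists were mixed: of 7 lactotrope genes named by the study on these samples, 3 (Gria2, Nr4a1 and Nr4a2) were higher than in the Gh kind and 0 passed against the Prl kind, where the median log2 fold change was 0.40. Of 3 lactotrope markers, Gria2 was higher than in the Gh kind and 0 passed against the Prl kind.

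Both melanotrope markers that were tested, Pcsk2 and Pax7, were higher in barcodes with Gh and Prl than in either single-hormone kind. Pcsk2, the prohormone convertase that melanotropes use to cut POMC, stood at 6.28, 5.88, 7.27, 5.91 and 6.59 UMIs per 10000, against 0.502 to 1.57 in the Gh kind (log2 fold change 2.40 ± 0.34, adjusted p = 3.49e-09) and 0.474 to 1.11 in the Prl kind (log2 fold change 3.26 ± 0.43, adjusted p = 2.23e-11 by edgeR). The ranges did not overlap with either kind, and Pomc single-hormone barcodes held 38.0 to 74.0. Pax7, the melanotrope transcription factor, had 25 UMIs in barcodes with Gh and Prl and 0 in the Prl kind, at least 4.19-fold higher against a floor of 3 counts, and rose by 2.51 on the log2 scale against the Gh kind (adjusted p = 0.0284 by edgeR), although it was at 0 in the transgenic library. Megf11 had 30 UMIs against 0 in the Gh kind, at least 5.55-fold higher, and stood at 2.73 to 4.11 per 10000 in Pomc single-hormone barcodes. Against the Prl kind Megf11 did not pass (adjusted p = 0.166 by edgeR). By the rule, Pomc held under 20% of the hormone UMIs in these barcodes, and how much of Pcsk2 came with that Pomc RNA was not tested.

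The glycoprotein hormone genes lay above both single-hormone kinds. Lhb stood at 4.48, 11.2, 2.24, 1.91 and 13.0 UMIs per 10000 in barcodes with Gh and Prl, at 0 to 0.589 in the Gh kind (log2 fold change 4.31 ± 0.42, adjusted p = 3.47e-21) and at 0 to 1.03 in the Prl kind (log2 fold change 4.36 ± 0.49, adjusted p = 4.81e-16 by edgeR). Cga stood at 57.4, 54.7, 49.0, 50.1 and 119 against 3.29 to 5.89 and 3.31 to 4.08. For both genes the kinds did not overlap. All 4 glycoprotein hormone subunit genes rose against each single-hormone kind, and so did Gnrhr, the gonadotrope marker tested that is not a subunit gene. Against the Gh kind 4 of 12 lineage transcription factors (Pax7, Nr4a1 and Nr4a2 among them) and 5 of 14 granule genes (Chga, Chgb, Scg2, Scg5 and Pcsk2) rose, and none fell. Against the Prl kind 3 of 4 red cell markers rose, and against the Gh kind 1 of 4 did. Of 4 stromal markers, Dcn was called higher than in the Gh kind and 0 were called against the Prl kind. Igfbp7 had the largest rise of the genes ranked against the Gh kind (log2 fold change 4.83 ± 0.83, adjusted p = 2.12e-06 by edgeR). Over all 4975 genes, 69 were higher (1.39%) and 18 lower (0.362%) than in the Gh kind, 1.75% together, and 85 higher (1.71%) and 11 lower (0.221%) than in the Prl kind, 1.93% together. Both comparisons share the sums of barcodes with Gh and Prl. By DESeq2 the counts were 48 and 35 against the Gh kind and 51 and 38 against the Prl kind. Without the 5% of barcodes with most UMIs, 69 genes were higher and 69 lower than in the Gh kind. Against the Prl kind 22 were then higher and 4 lower, with Lhb, Cga, Pcsk2 and Ghrhr still called. Of the 10 genes ranked by change in each comparison, however, 3 of 8 tested were still called against the Prl kind. Against the Gh kind 2 of 3 tested were.

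**Figure D5:**
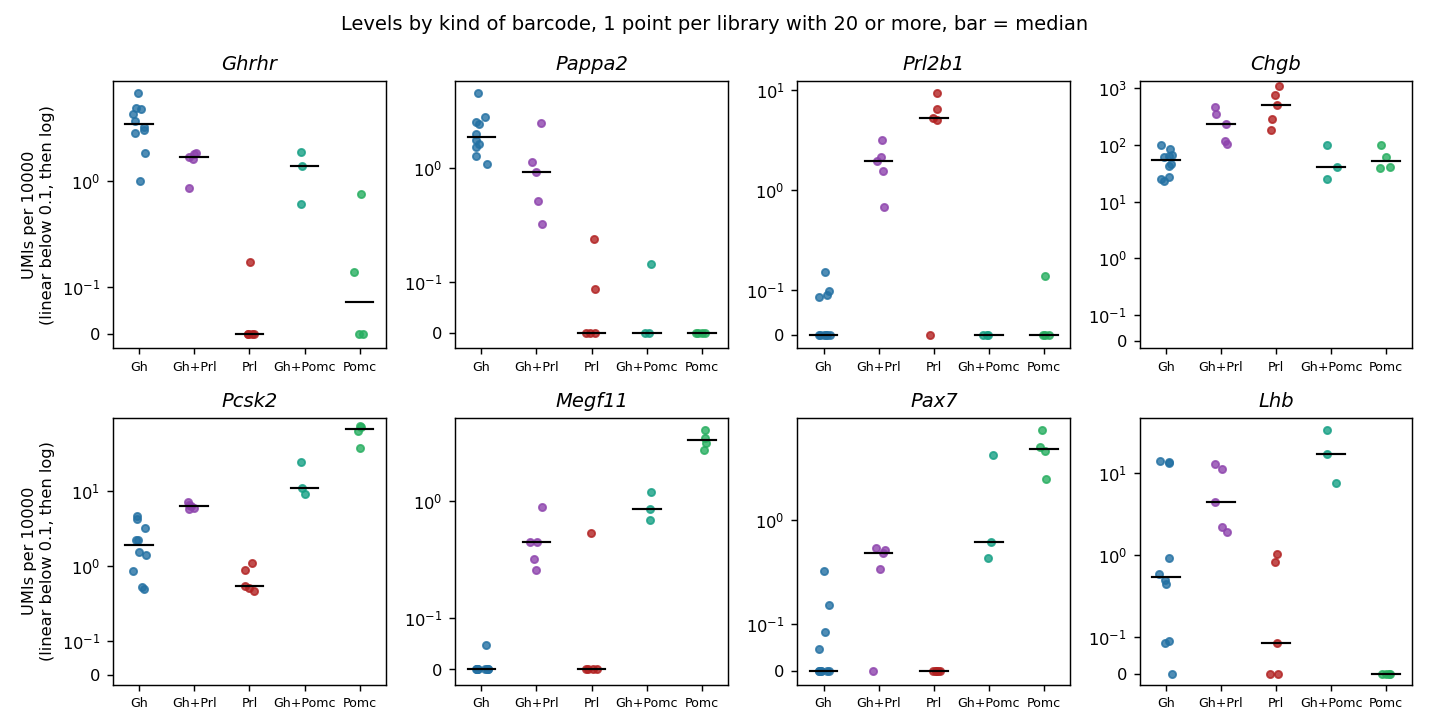
UMIs per 10000 non-hormone UMIs of 8 genes by kind of barcode (Gh, Prl and Pomc single-hormone; Gh with Prl; Gh with Pomc), 1 point per library that held at least 20 such barcodes, with bars at the medians and an axis that is linear below 0.1 and logarithmic above. In the 4 libraries with all 3 kinds (transgenic, virgin and both lactating), the values of Ghrhr and Prl2b1 in barcodes with Gh and Prl lie between both single-hormone kinds and those of Lhb lie above them.

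Barcodes with Gh and Pomc could be set against Gh single-hormone barcodes in 3 libraries (10X male, Drop-seq male 1 and Drop-seq female 2), and against the Pomc kind in fewer, so the latter comparison is not given. Of 4975 genes 14 were higher (0.281%) and 2 lower (0.0402%), 0.322% together. Pcsk2 stood at 24.2, 9.09 and 11.1 UMIs per 10000 against 4.62, 3.20 and 2.25 (log2 fold change 1.73, adjusted p = 0.0236), and Pax7 at 0.429, 0.606 and 4.15 against 0.0471, 0.152 and 0 (log2 fold change 3.67, adjusted p = 0.0236 by edgeR). Megf11 rose too, and so did Dcn and Ptgds, the latter at 1.00, 1.21 and 22.1 against 0.236, 0.152 and 0. Pappa2, a protease gene of the IGF axis that the Gh kind expressed at 1.07 to 4.49 over its libraries, had 1 UMI in barcodes with Gh and Pomc (log2 fold change -4.03, adjusted p = 0.0236 by edgeR), and mt-Nd2 fell by 1.62 on the log2 scale. None of the 4 glycoprotein hormone subunit genes passed: Lhb stood at 33.8, 17.0 and 7.60 against 14.1, 13.9 and 0.449. In barcodes with all 3 genes, which were summed in 4 libraries and not tested, Pcsk2 stood at 12.2 to 22.8 and Lhb at 0.688 to 21.9 per 10000.

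Within the multi-hormone barcodes, few genes were called between conditions. In data simulated with 1 preset spread for all genes, the sex test recovered 2% of genes changed 2-fold. The lactation and transgene tests were not simulated. Between WT 8-week males and females, 2 of 1351 genes were higher (0.148%) and 1 lower (0.074%) in males, 0.222% together, with 47 genes at an unadjusted p below 0.05. Fshb stood at 10.6, 7.10 and 8.85 UMIs per 10000 in the male and 0.0666, 0.621 and 1.58 in the female libraries, with no overlap (log2 fold change 4.07 ± 0.53, adjusted p = 2.6e-07 by edgeR). The same direction stood outside the multi-hormone barcodes: Fshb was at 4.34, 3.04 and 3.72 in the male and 0 in the 3 WT 8-week female libraries in Gh single-hormone barcodes, and at 3.17, 6.27 and 1.36 against 0.0475, 0.0645 and 0.203 in low-UMI barcodes. Snhg11, a noncoding RNA, was higher in males by 2.55 (adjusted p = 0.00932 by edgeR). The fit held platform and sex but not the kind of multi-hormone barcode, which differed between the sexes. For Snhg11, sex and kind cannot be told apart. Xist, the RNA of the inactive X chromosome, had 0 UMIs in the 3 male libraries, at least 99.4-fold lower, which matches the labelled sexes.

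Between lactating and virgin females, 2 of 3842 genes were lower and 0 higher by edgeR (0.0521%), with 80 at an unadjusted p below 0.05, and DESeq2 called the same 2. Lhb stood at 10.9 UMIs per 10000 in the virgin and 2.24 and 1.76 in the lactating multi-hormone barcodes (log2 fold change -2.32 ± 0.45, adjusted p = 0.000485), and Cwc22, a splicing factor gene, at 3.92 against 0.0932 and 0.0928 (log2 fold change -5.07, adjusted p = 7.11e-08 by edgeR). In the virgin library Cwc22 also stood at 8.03 in single-hormone and 2.79 in C1q-positive barcodes, against at most 0.341 in both classes of the lactating libraries. With 1 virgin library, the spread came from the other Drop-seq groups, and 0 genes were called when either lactating library was left out. In the mt/hGRF library 2 of 3842 genes were lower than in the Drop-seq WT 8-week females and 0 higher (0.0521%), with 253 at an unadjusted p below 0.05 and 0 called by DESeq2. One of the 2 was Gm42418, a gene model without a name, at 12.3 against 27.6 and 126 in Drop-seq females 1 and 2 (log2 fold change -2.66, adjusted p = 0.00133 by edgeR), and neither of the 2 was called without Drop-seq female 2.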

How the data were processed

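Mouse pituitary cells had been dissociated without enzymes and sequenced by 10X Genomics (2 libraries) and Drop-seq (8 libraries). The files hold UMI counts per gene and barcode as deposited by the authors. Per the labels, STAR 2.5.2a, Cell Ranger and mm10 were used. Per the study's methods, Drop-seq reads were aligned to mm10, uniquely mapped exon reads were counted on Gencode genes and UMIs within an edit distance of 1 were merged. Barcodes were kept with at least 300 UMIs and 100 to 4000 genes (Drop-seq) or 201 to 2999 genes (10X), under 10% of UMIs from mitochondrial genes and under 1% from ribosomal protein pseudogenes; the last limit removed 1107 of 23432 barcodes. The members and gene lists were chosen with earlier results of these data known. For each library and class, counts of the 24767 genes in both platforms were summed without the 7 hormone genes in the totals, genes with low counts were filtered by edgeR's filterByExpr, and edgeR 4.0.16 (R 4.3.3) tested the sums after TMM scaling, with the library as a block for classes. Sums for kinds of barcode needed 20 barcodes per library. Levels are UMIs per 10000 non-hormone UMIs. Values per library were compared by exact sign-flip tests (SciPy 1.17.1, Python 3.11.15, seed 7), two-sided. Each library is 1 sample, so p-values measure the spread between libraries. Named genes were the 10 rises and 10 falls with the largest log2 fold change (5 and 5 in other comparisons) at an adjusted p below 0.05 with the same sign in at least 80% of libraries with a UMI, plus examples from the lists; some genes under this rule are not reported here. DESeq2 1.42.0, other filters, scalings and class limits, and leaving out each library were alternatives. In data simulated from these libraries, edgeR recovered 27% of 200 genes changed 2-fold between classes (2 false calls) and, between sexes, 2% of 200 changed 2-fold (0 false calls) and 70% of 200 changed 4-fold (5 false calls). The simulated data had 1 mean per gene over all libraries and 1 preset spread for all genes. They held no differences between libraries or platforms other than depth, so these rates may not hold for the real data. Female and male libraries were matched by platform and title tag. Deviations from the sex means had r = 0.817, 0.401 and 0.461 over 1192 genes, but these means span both platforms, so the values carry the platform difference. Within Drop-seq alone the title tag gave r = 0.11, so pairing by tag was not shown.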

Additional observations from a re-analysis of the deposited data

Results flagged for a closer look

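Of all kept barcodes, 24.91% were multi-hormone in the first Drop-seq library of 8-week WT females, against a median of 5.06% over the 10 libraries. Its gap to the next library took 0.622 of the whole range, which marked it as far from the others by Dixon's criterion. It was the 1 library so marked over 29 groups of values, and chance marks about 1 in 20. The share is built from the Gh, Prl and Pomc levels that chose the barcodes, so this is a description and supports nothing else.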

How the results depend on the processing

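The sex difference in the multi-hormone share kept its direction in each alternative run, at -22.22 with the second gene above 30%, -34.69 and -43.96 at hormone shares of 20% and 40%, and -48.93 to -30.87 percentage points with 1 library left out. Each of these runs uses the Gh, Prl and Pomc levels that chose the barcodes, so the values are a description and no support. For non-hormone UMIs the log2 ratio of 0.07 turned to -0.0799 with means in place of medians, -0.0263 in Drop-seq alone and -0.0087 without the 10X female library (0.17 at most with another left out); the cause was not tested. Between multi- and single-hormone barcodes, higher and lower counts (56 and 67) became 34 and 34 by DESeq2, 131 and 29 with no TMM, 21 and 14 with the second gene above 30%, and 35 and 34 in Drop-seq alone. Lower counts became 25 with no filter, 23 at a hormone share of 20%, 29 with single genes above 90% and 15 with weighted kinds. With 1 library left out the counts ran from 33 to 69 and from 28 to 134: 33 and 28 without the virgin, 69 and 134 without lactating library 1. Cga, Lhb and Hbb-bs passed in 23 of 24 alternatives. With no library as a replicate block, 0 genes were called either way among 1925 tested. The block pairing female with male libraries changed no call between sexes. Without barcodes sharing their first 11 bases, an alternative chosen after seeing the data, the counts were 53 and 58.

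Against Gh single-hormone barcodes, lower counts for Gh with Prl were 35 by DESeq2, 6 with no filter and 69 without the top 5% by UMIs (33 to 78 higher and 5 to 34 lower with 1 library left out). Against the Prl kind, counts were 51 and 38 by DESeq2, 22 and 4 without the top 5%, with 2 lower with no filter (41 to 87 and 4 to 23). For Gh with Pomc, 5 were higher and 1 lower with no filter, 0 lower by DESeq2 and 5 lower without the top 5% (11 to 18 and 1 to 3). Between sexes DESeq2 called 1 higher and no filter 2 lower (1 to 4 and 1 to 3), for lactation 0 and 0 with either library left out, and for the transgene no filter called 2 higher and DESeq2 0 lower (0 to 2 and 0 to 5). mt-Nd3 turned to 0.15 by DESeq2 (adjusted p = 0.989). Of the values for named genes, 648 kept direction and side of the threshold and 122 only direction. Depth limits genes of a few UMIs, for many of which DESeq2 gave no adjusted p, and with 1 or 2 libraries a group the spread is borrowed from others.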
